A study of Mus musculus with 8 samples.

Results

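The clustered protocadherins are cadherin-family surface proteins encoded by the alpha, beta and gamma gene clusters, which lie one after another on mouse chromosome 18. Members were all noncontrol features of the array whose gene name begins with Pcdha, Pcdhb or Pcdhg. This gave 35 of the 34797 gene names and 47 of the 59305 noncontrol spots, from 38 probes. The alpha cluster had 7 genes and 9 probes, the beta cluster 22 genes and 22 probes, and the gamma cluster 6 genes and 7 probes. A RefSeq gene table of a later assembly lists 58 genes under the same rule, 14 of them alpha, 22 beta and 22 gamma, so the array covered all beta names but fewer than all alpha and gamma names.

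In the alpha and gamma clusters, each variable exon has its own promoter and encodes the extracellular part, the membrane span and a short stretch of the cytoplasmic tail of 1 isoform, and it is spliced to constant exons that all isoforms of the cluster share. Beta genes are single exons without a constant part. A neuron chooses a small set of the alternate promoters, largely at random, through DNA methylation and looping of chromatin by CTCF and cohesin, while the C-type isoforms at the 3′ end of the alpha and gamma clusters follow other rules. The proteins bind only to matching partners on other membranes, and in the olfactory system this recognition is known for the sorting of sensory axons into glomeruli and for the self-avoidance of neurites.

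The samples were olfactory bulbs of C57BL/6J mice aged 56 days. C-C mice were reared in a standard cage and kept in clean air, and C-DE mice were reared in the same way and inhaled diesel exhaust at 90 µg/m3 for 8 hours per day over 28 days. EE-C and EE-DE mice were reared with environmental enrichment, a larger cage with a running wheel and objects that were moved and replaced, and were kept in clean air or exposed to the same diesel exhaust. All mice were male, and RNA of several litters was pooled by group, so that each of the 4 groups is 1 pool measured on 2 technical arrays of 1 colour.

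Each group is therefore a single biological sample, and no test was possible. A value is the log2 of a spot's signal over its array's 75th percentile, a fold change is the difference of 2 pool means on that scale, and each carries its range over the 4 ways of pairing the arrays of both pools. That range holds the technical error only. Levels are not compared between probes. In a bulk sample, fewer cells of a type and less RNA per cell cannot be told apart. The 8 arrays lay on 1 slide, with standard-cage arrays in its first row and enriched arrays in its second, and each pool had its own positions, so slide position and group cannot be told apart.

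The 75th percentile of noncontrol spots was between 644 and 716 intensity units, and no noncontrol spot was saturated. The share of spots well above background ranged from 68.0% to 70.6% on 7 arrays and was 56.7% on the first array of EE-DE. Markers of mitral and tufted cells (6 genes, among them Cdhr1 and Tbx21) and of bulb interneurons (8 genes, among them Gad1 and Th) were detected on all arrays. Markers of supporting cells and of glands in the olfactory mucosa, a tissue beyond the bulb, were detected too, and their median differed by -1.20 between C-DE and C-C and by 0.72 between EE-DE and EE-C.

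Of the 38 member probes, 30 from 27 genes passed the filter (well above background on all 8 arrays, without an outlier flag): 8 alpha, 17 beta and 5 gamma probes. All 38 gave a positive and significant signal on every array. Pcdhac1, Pcdhb1, Pcdhb2, Pcdhb5, Pcdhb11 and Pcdhga10 missed the filter on the first EE-DE array only, where the dimmest spot well above background stood at -4.71, against -5.97 or less on the other 7. Pcdhga5 was not well above background on either EE-DE array. Its measured pool mean was -5.64 there, -5.10 in EE-C, -5.38 in C-DE and -5.22 in C-C. No fold is given for it. Pcdhb19 had an outlier flag on the first EE-DE array, where it read 0.77. On the other 7 arrays it was between -4.63 and -3.90.

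Duplicates of the dim beta and gamma members that missed the filter on the first EE-DE array were up to 1.80 apart. Pcdhb1 read -4.64 and -4.71 on C-C arrays, -5.21 and -3.40 on C-DE arrays, -4.54 and -4.63 on EE-C arrays and -4.88 and -4.17 on EE-DE arrays. Its C-DE duplicates had that gap and covered all other arrays. Pcdhb2 read -4.57 and -4.32 on C-C arrays, -4.84 and -4.60 on C-DE arrays, -5.24 and -4.70 on EE-C arrays and -4.85 and -4.42 on EE-DE arrays. Pcdhb5 read -4.57 and -4.30 on C-C arrays, -4.25 and -4.42 on C-DE arrays, -4.90 and -4.92 on EE-C arrays and -4.79 and -4.30 on EE-DE arrays. The EE-C arrays of Pcdhb5 were the lowest 2 of the 8, and those of Pcdhb2 overlapped the other pools. Pcdhb11 read -4.67 and -4.46 on C-C arrays, -4.71 and -4.68 on C-DE arrays, -4.32 and -5.17 on EE-C arrays and -4.89 and -4.82 on EE-DE arrays. Pcdhga10 read -4.12 and -4.55 on C-C arrays, -4.48 and -4.26 on C-DE arrays, -4.44 and -4.47 on EE-C arrays and -4.57 and -4.49 on EE-DE arrays. The EE-C duplicates of Pcdhb11 were 0.85 apart and the C-C duplicates of Pcdhga10 covered all arrays but the first of EE-DE.

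The probes lay between positions 37114742 and 38001437 of chromosome 18 (mm9, as the array files give them). Alpha probes spanned 37114742 to 37347294, beta probes 37427011 to 37680728 and gamma probes 37823813 to 38001437. A probe that the array annotation assigns to 4 transcripts and that lies 3′ of the last variable exon was taken as a probe of the shared exons. These were the second Pcdhac2 probe (chr18:37347235-37347294) and both probes named Pcdhga9 (chr18:37999725-37999784 and chr18:38001378-38001437), so that Pcdhga9 itself had no variable exon probe. The second Pcdhac2 probe thus reads alpha transcripts as a group, and the Pcdhga9 probes read gamma transcripts as a group. The second Pcdha8 probe is assigned to Pcdha4 and Pcdha7 as well. Among the variable exon probes, a transcript model beyond the named isoforms is also listed for this one and for those of Pcdha4 and Pcdhga10. C-type isoforms on the array were Pcdhac1, Pcdhac2 and Pcdhgc5, and none of the probes was named Pcdhgc3 or Pcdhgc4.

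**Figure D1:**
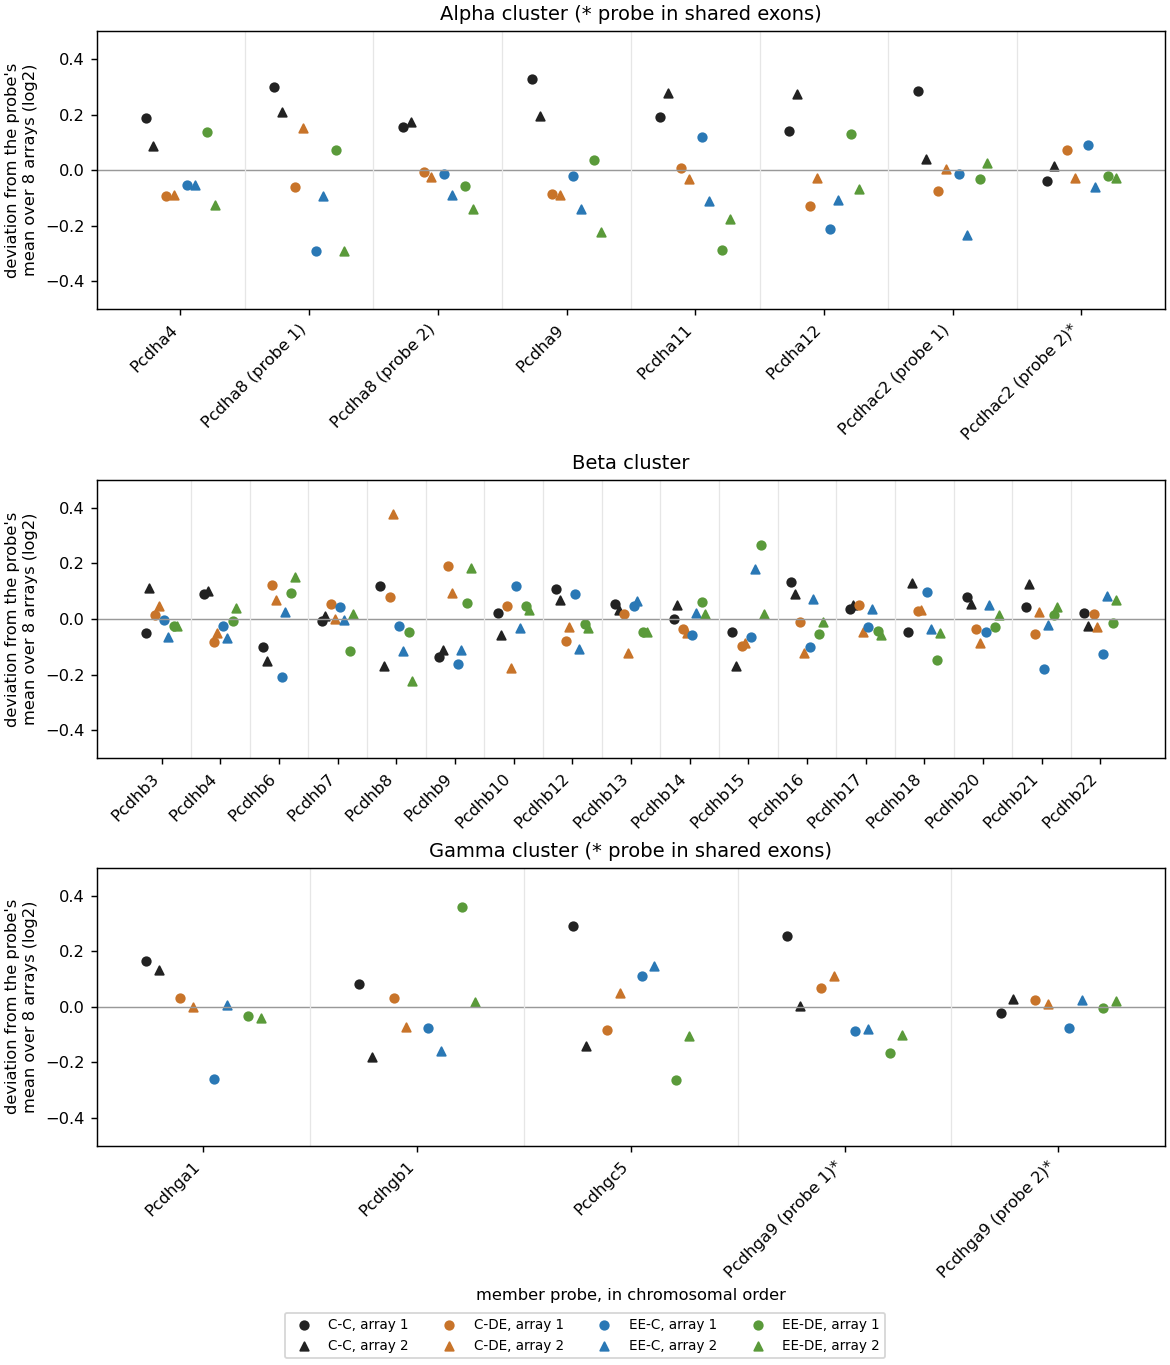
Deviation of each member probe that passed the filter from its own mean over the 8 arrays (log2, y axis), with probes in chromosomal order on the x axis, colours for the 4 pools and symbols for the 2 arrays of a pool. In the alpha panel, both C-C arrays lie above the arrays of the other pools for 6 of the 7 variable exon probes, but not for the shared exon probe (marked with a star).

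None of the 30 member probes that passed the filter went past 1.5-fold (0.585 on the log2 scale) in any of the 5 comparisons. Of all 21709 probes, the share past it in either direction was 0.576% for C-DE/C-C, 0.944% for EE-DE/EE-C, 0.825% for EE-C/C-C, 0.636% for EE-DE/C-DE and 0.815% for EE-DE/C-C. The member medians were -0.08, 0.00, -0.06, 0.00 and -0.09 in that order, and those over all probes were -0.01, -0.01, 0.01, 0.00 and -0.01. Beta medians stayed between -0.06 and 0.03. Gamma medians lay between -0.07 and 0.03 except in EE-DE/C-C, with -0.19. The alpha cluster had the lowest median in each comparison with C-C: -0.22 with C-DE, -0.26 with EE-C and -0.22 with EE-DE.

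**Figure D2:**
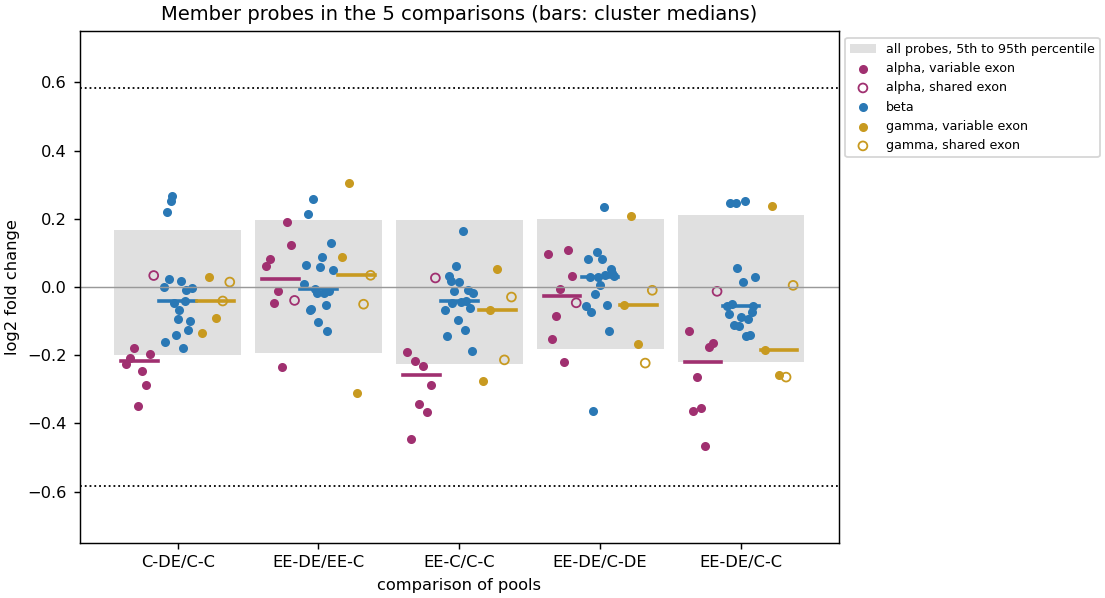
Log2 fold change (y axis) of the 30 member probes in the 5 comparisons of pools (x axis), by cluster, with bars at cluster medians, open circles for shared exon probes, a grey band from the 5th to the 95th percentile of all probes and dotted lines at 1.5-fold. No member reaches the dotted lines, and the alpha variable exon probes lie below 0 in the 3 comparisons with C-C.

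By pool mean, the 7 alpha variable exon probes that passed the filter were lower in each of the 3 other pools than in C-C. The pools overlapped at the shared alpha exon. The variable exon probes were set apart from the shared exon probe after the values were seen, so their counts and medians are a description. These comparisons all use the same C-C arrays, and their values are therefore given side by side. In C-DE/C-C, 7 of 7 variable exon probes were lower in all 4 pairings, with a median of -0.23 and probe values from -0.35 to -0.18, where 22.4% of all probes were. In EE-C/C-C it was again 7 of 7, with a median of -0.29 and probe values from -0.45 to -0.19, where 17.5% of all probes were. In EE-DE/C-C it was 6 of 7, with a median of -0.26 and probe values from -0.47 to -0.13, where 24.8% of all probes were. Of the 10964 probes whose mean signal fell within the range of these 7, the shares were 22.3%, 19.1% and 24.1%. Both C-C arrays stood above all 6 arrays of the other pools for 6 of the 7, against 5.8% of all probes. The margin was 0.16 for Pcdha9 and for the second Pcdha8 probe, 0.07 for Pcdha11 and 0.06 for the first Pcdha8 probe. It was 0.01 for Pcdha12 and for the first Pcdhac2 probe. The SD between duplicates of the 7 probes was 0.07 to 0.15 by pool, and only the 0.16 margins were above that range.

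Pcdha9 is an alternate isoform. It read -1.21 and -1.35 on the C-C arrays, -1.63 and -1.63 on the C-DE arrays, -1.56 and -1.68 on the EE-C arrays, and -1.51 and -1.76 on the EE-DE arrays. The C-C arrays were the highest 2 of the 8, and the other pools overlapped. The fold change was -0.35 (-0.42 to -0.28) in C-DE/C-C, -0.34 (-0.47 to -0.22) in EE-C/C-C and -0.36 (-0.55 to -0.16) in EE-DE/C-C.

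Pcdha12, another alternate isoform, read -1.46 and -1.33 on C-C arrays, -1.73 and -1.63 on C-DE arrays, -1.81 and -1.71 on EE-C arrays and -1.47 and -1.67 on EE-DE arrays. The lowest pool was EE-C, and the first EE-DE array came to 0.01 below the lower C-C array. Its fold changes were -0.29 (-0.40 to -0.17) in C-DE/C-C, -0.37 (-0.48 to -0.25) in EE-C/C-C and -0.18 (-0.34 to -0.01) in EE-DE/C-C.

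Pcdha11 read -2.89 and -2.80 on C-C arrays, -3.07 and -3.11 on C-DE arrays, -2.96 and -3.19 on EE-C arrays and -3.37 and -3.25 on EE-DE arrays. EE-DE was the lowest pool, below every other array. Among the alpha probes Pcdha11 alone was lower in all 4 pairings also in EE-DE/EE-C, with -0.24 (-0.41 to -0.06), where 19.6% of all probes were, and it gave -0.22 (-0.29 to -0.14) in EE-DE/C-DE.

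Pcdha8 had 2 probes. The first, at chr18:37153996-37154055, read -3.21 and -3.30 on C-C arrays, -3.57 and -3.36 on C-DE arrays, -3.80 and -3.60 on EE-C arrays and -3.43 and -3.80 on EE-DE arrays. The second, at chr18:37154205-37154264, which other alpha isoforms can also meet, read 0.86 and 0.88 on C-C arrays, 0.70 and 0.68 on C-DE arrays, 0.69 and 0.61 on EE-C arrays and 0.64 and 0.56 on EE-DE arrays. Both had C-C above all other arrays. The first probe gave the lowest value of the 30 probes in EE-C/C-C, -0.45 (-0.59 to -0.30), and the EE-DE duplicates were 0.36 apart there.

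Pcdha4, the most 5′ member on the array, read -2.37 and -2.47 on C-C arrays, -2.64 and -2.64 on C-DE arrays, -2.61 and -2.61 on EE-C arrays and -2.41 and -2.68 on EE-DE arrays. It was the exception, since the first EE-DE array lay between the C-C arrays. Pcdhac2, the C-type isoform that serotonergic axons use to keep apart from each other, read -2.45 and -2.70 at its own exon (chr18:37305687-37305745) on C-C arrays, -2.81 and -2.74 on C-DE arrays, -2.75 and -2.97 on EE-C arrays and -2.77 and -2.71 on EE-DE arrays. The second C-C array exceeded the highest array of the other pools by 0.01. The other C-type isoform, Pcdhac1, is not among the 7 because of the filter. Its levels were -5.20 and -5.15 on C-C arrays, -5.52 and -5.42 on C-DE arrays, -5.15 and -5.03 on EE-C arrays and -5.72 and -5.12 on EE-DE arrays, so EE-C was not below C-C.

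The shared alpha exon, the second Pcdhac2 probe, read 3.00 and 3.06 on C-C arrays, 3.11 and 3.01 on C-DE arrays, 3.13 and 2.98 on EE-C arrays and 3.02 and 3.01 on EE-DE arrays. All pools overlapped. Its fold changes against C-C were 0.03 (-0.05 to 0.11) in C-DE, 0.03 (-0.08 to 0.13) in EE-C and -0.01 (-0.05 to 0.02) in EE-DE.

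The alpha difference was smaller after normexp correction, which here added an offset of 50 to the signals. The first Pcdha8 probe had 47 to 72 intensity units, so the correction and its offset cannot be told apart. After normexp correction of the mean spot signals the medians were -0.13, -0.22 and -0.15 in C-DE/C-C, EE-C/C-C and EE-DE/C-C, and 5, 5 and 4 of the 7 probes were lower in all 4 pairings. The share of all probes was not computed under this correction, so these counts cannot be set against it. Local deviations of the slide around member spots were between -0.04 and 0.10 on all arrays, and subtracting them left the medians at -0.21, -0.28 and -0.26.

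Median deviations of the 7 probes from their means over all arrays were 0.19 and 0.20 on the C-C arrays, -0.07 and -0.03 on the C-DE arrays, -0.02 and -0.11 on the EE-C arrays, and 0.04 and -0.14 on the EE-DE arrays. The supporting cell and gland markers (9 probes, of 7 of 8 genes) deviated by 0.69 and -0.08 on C-C arrays, -1.10 and -0.73 on C-DE arrays, 0.60 and -0.65 on EE-C arrays and 0.32 and 1.09 on EE-DE arrays. The C-C duplicates were 0.77 apart in the median of these markers. Of the markers of olfactory sensory neurons, whose axons bring RNA into the bulb, all 8 were detected. All 8 were lower in C-DE/C-C, where Cnga4 (-0.95) and Ano2 (-0.90) went past 1.5-fold, against 1 of 8 lower in EE-DE/C-C. Medians of the 8 were -0.16, -0.04 and 0.09 in C-DE/C-C, EE-C/C-C and EE-DE/C-C. The meninges and fibroblast markers (4 of 4 genes) gave -0.27, -0.33 and -0.03 in the same comparisons, and their deviations were 0.30 and -0.04 on the C-C arrays, between -0.36 and 0.07 on the rest. Oligodendrocyte markers (9 probes) gave -0.05, -0.05 and -0.06, endothelium and mural cell markers (5 probes) -0.04, -0.07 and -0.08, and blood markers (3 probes) -0.20, 0.05 and -0.01. Astrocyte markers (8 probes) gave 0.03, -0.02 and 0.06, and microglia markers (8 probes) -0.01, 0.01 and -0.03. The part of these cell types in the alpha difference was not tested. Mitral and tufted cell medians were between -0.01 and 0.04 in all 5 comparisons, and those of bulb interneurons between -0.06 and 0.02.

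**Figure D3:**
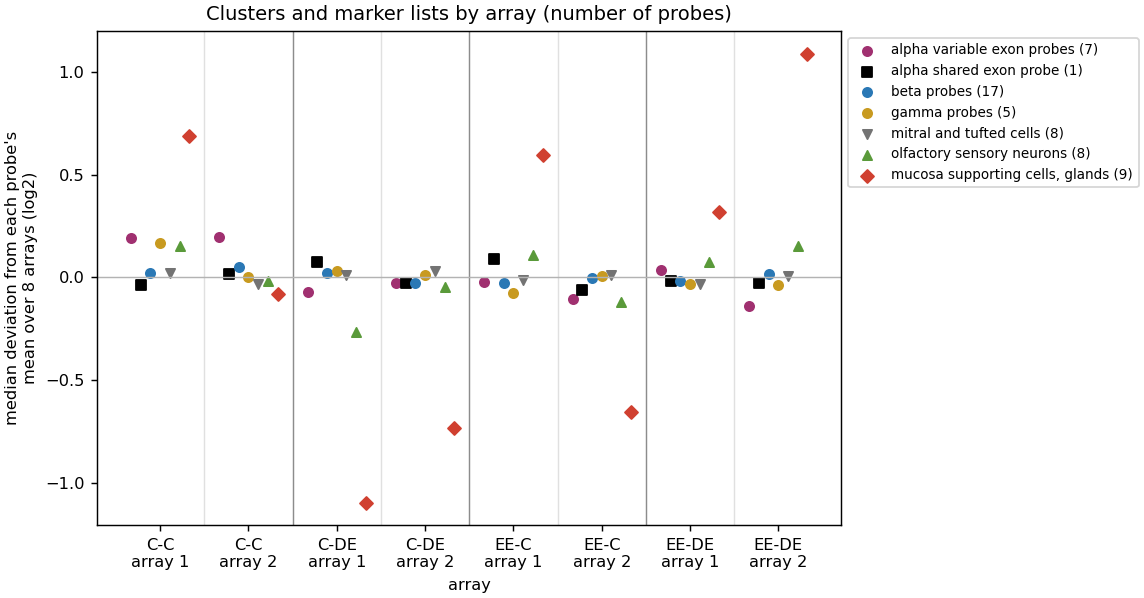
Median deviation of the probes of a cluster or marker list from their means over the 8 arrays (log2, y axis) on each array (x axis). The alpha variable exon probes stand at 0.19 and 0.20 on the C-C arrays and between -0.14 and 0.04 elsewhere, while the markers of mucosa supporting cells and glands differ between duplicates by up to 1.25.

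Between the pools other than C-C, alpha variable exon probes went both ways. With diesel exhaust against clean air under enrichment (EE-DE/EE-C) the median was 0.06, with values from -0.24 to 0.19, and -0.01 in EE-DE/C-DE, with values from -0.22 to 0.11. The difference between the diesel exhaust fold changes of the 2 rearings (EE-DE/EE-C minus C-DE/C-C) was above 0 for 7 of 7 probes, where 48.0% of all probes were, with a median of 0.29 and probe values from 0.01 to 0.48, against a median of -0.01 over all probes and 0.06 over all members. It includes the C-C arrays and so is not separate from the values above. In 3 of the 30 member probes (Pcdha12, Pcdhb4 and Pcdhb21) all pairings went one way in standard cages and the other way with enrichment, as they did in 4.28% of all probes.

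In the beta cluster, Pcdhb6 and Pcdhb9 were higher with diesel exhaust in both rearings. They were the only 2 of the 30 member probes that were higher in every pairing of C-DE with C-C and also in every pairing of EE-DE with EE-C, a share near the 3.89% of all probes. In standard cages alone (C-DE/C-C) the count was the same 2 of 30, where 18.5% of all probes were higher in every pairing, while 15 of 30 were lower in every pairing, where 22.4% of all probes were. With enrichment (EE-DE/EE-C) 6 of 30 were higher, where 14.6% of all probes were, and 6 of 30 were lower, where 19.6% of all probes were. Beta isoforms join alpha and gamma isoforms in the mixed complexes that confer identity at the membrane.

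Pcdhb9 (chr18:37562726-37562785) read -2.89 and -2.87 on C-C arrays, -2.57 and -2.66 on C-DE arrays, -2.92 and -2.87 on EE-C arrays and -2.70 and -2.57 on EE-DE arrays. All 4 clean air arrays lay below all 4 diesel exhaust arrays. The fold change was 0.27 (0.21 to 0.33) in standard cages and 0.26 (0.17 to 0.34) with enrichment.

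Pcdhb6 (chr18:37495897-37495956) read 0.51 and 0.46 on C-C arrays, 0.73 and 0.68 on C-DE arrays, 0.40 and 0.63 on EE-C arrays and 0.70 and 0.76 on EE-DE arrays. Again the diesel exhaust arrays were the upper 4, by 0.04 at the closest. The fold change was 0.22 (0.17 to 0.27) in standard cages and 0.21 (0.07 to 0.36) with enrichment.

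**Figure D4:**
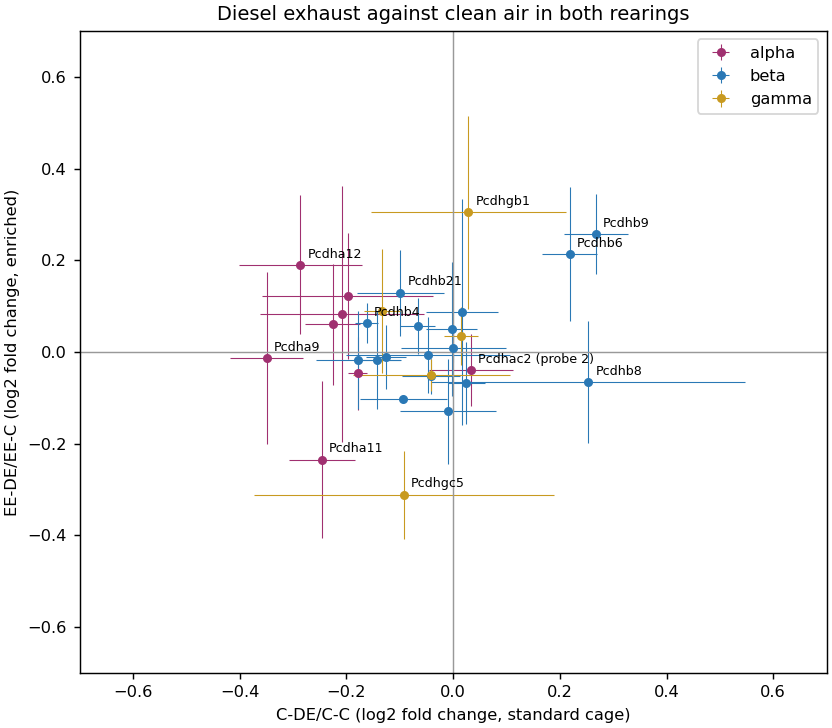
Log2 fold change with diesel exhaust in standard cages (C-DE/C-C, x axis) and with enrichment (EE-DE/EE-C, y axis) for the 30 member probes, coloured by cluster, with bars from the lowest to the highest of the 4 pairings. The pools of the x and y axes do not overlap, and Pcdhb6 and Pcdhb9 lie at the upper right with both ranges above 0.

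Pcdhb8 and Pcdhb15 had the widest gaps between duplicates among the 17 beta probes, up to 0.30 and 0.25. Pcdhb8 read -3.43 and -3.71 on C-C arrays, -3.47 and -3.17 on C-DE arrays, -3.57 and -3.66 on EE-C arrays and -3.59 and -3.77 on EE-DE arrays. Its C-DE/C-C value of 0.25 had a range from -0.04 to 0.55, and in EE-DE/C-DE it gave -0.36 (-0.60 to -0.13), the lowest value of the 30 probes there. Pcdhb15 had the highest value of the 30 in EE-DE/C-DE, 0.23 (0.10 to 0.36), and in EE-C/C-C, 0.16 with a range from -0.02 to 0.35. The next of the 30 in EE-C/C-C was Pcdhb10, with 0.06 (-0.05 to 0.18). Pcdhb18 gave -0.13 (-0.24 to -0.01) in EE-DE/EE-C.

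Like 6 of the 7 alpha variable exon probes, Pcdhb4, Pcdhb16, Pcdhb20 and Pcdhb21 had both C-C arrays above the 6 others, 4 of 17 beta probes against the 5.8% of all probes given above. The margin was 0.05 for Pcdhb4, 0.02 for Pcdhb16, 0.001 for Pcdhb20 and 0.0003 for Pcdhb21. All 4 margins were below the SD between duplicates of the beta probes, 0.07 to 0.10 by pool, and so within the error of the arrays. The C-DE/C-C values of these 4 probes, in the same order, were -0.16, -0.18, -0.13 and -0.10. None of the 30 probes had C-C below all others, where 5.71% of all probes did.

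The probe of Pcdhb3 is printed 10 times on each array and so shows the error of 1 spot. The SD over its spots was between 0.04 and 0.10, and the means of the arrays were -0.79 and -0.63 on C-C arrays, -0.73 and -0.69 on C-DE arrays, -0.74 and -0.81 on EE-C arrays and -0.76 and -0.77 on EE-DE arrays. The C-C duplicates were thus 0.16 apart even with 10 spots each. All fold changes of Pcdhb3 were between -0.07 and 0.01. Over the 30 member probes that passed the filter the SD between duplicates was 0.10 on C-C arrays, 0.07 on C-DE arrays, 0.10 on EE-C arrays and 0.10 on EE-DE arrays, against 0.11, 0.11, 0.17 and 0.13 over all probes, and none of the 30 had duplicates 1.5-fold apart.

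**Figure D5:**
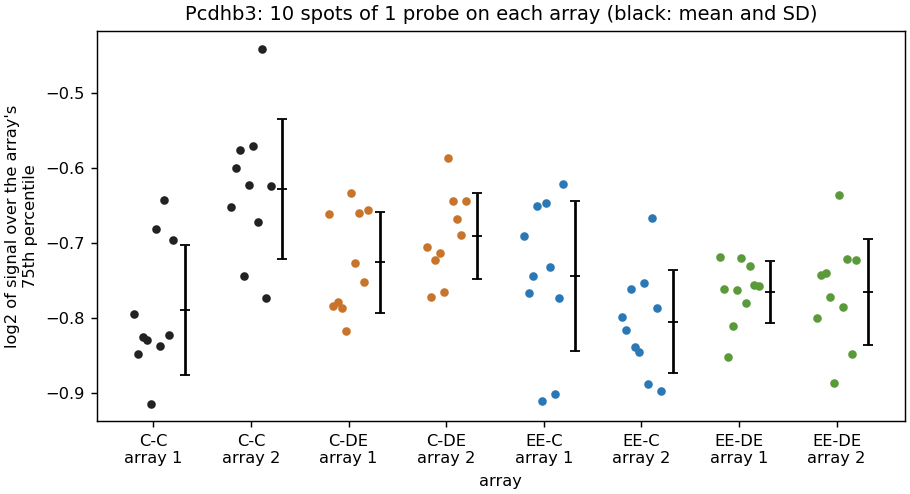
Log2 of signal over the array's 75th percentile (y axis) of the 10 spots of the Pcdhb3 probe on each array (x axis), with the mean and SD of the spots in black. Spots of 1 array spread with an SD of 0.04 to 0.10, and the pools overlap.

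In the gamma cluster the 2 shared exon probes did not run together. The probe nearest the 3′ end, at chr18:38001378-38001437, read between 5.92 and 6.03 on all 8 arrays, and its fold changes were between -0.03 and 0.03. The other, at chr18:37999725-37999784, read 1.20 and 0.95 on C-C arrays, 1.01 and 1.05 on C-DE arrays, 0.85 and 0.86 on EE-C arrays and 0.78 and 0.84 on EE-DE arrays. All 4 enriched arrays lay below the 4 standard-cage arrays, with -0.21 (-0.34 to -0.08) in EE-C/C-C and -0.22 (-0.28 to -0.17) in EE-DE/C-DE. Of all probes 5.92% were lower in all pairings of both comparisons.

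Pcdhgc5, a C-type isoform that is expressed as the brain matures, read -3.41 and -3.84 on C-C arrays, -3.78 and -3.65 on C-DE arrays, -3.59 and -3.55 on EE-C arrays and -3.96 and -3.80 on EE-DE arrays. Its C-C duplicates had the widest gap among the 30 probes, 0.43, and covered all other arrays but the first of EE-DE. With enrichment it was lower in diesel exhaust, at -0.31 (-0.41 to -0.22), and its EE-C/C-C value was 0.05 (-0.18 to 0.29).

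Pcdhgb1 read -4.17 and -4.43 on C-C arrays, -4.22 and -4.32 on C-DE arrays, -4.32 and -4.41 on EE-C arrays and -3.89 and -4.23 on EE-DE arrays. The EE-DE duplicates were 0.34 apart. The values were 0.30 (0.09 to 0.52) in EE-DE/EE-C and 0.21 (-0.01 to 0.43) in EE-DE/C-DE. Pcdhga1, the most 5′ gamma probe, read -3.59 and -3.62 in C-C and lower on all 6 other arrays, between -4.01 and -3.72, with -0.13 in C-DE/C-C, -0.27 in EE-C/C-C and -0.19 in EE-DE/C-C.

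Genes related to the clustered protocadherins by family or function were read from lists of nonclustered family members, of promoter choice and looping factors, and of signalling and processing partners. No probe of these lists passed 1.5-fold in any of the 5 comparisons. The list of nonclustered protocadherins held 13 names, of which 12 were on the array, with 23 probes, and Pcdh21 is an older name of Cdhr1, which was read with the mitral and tufted cell markers. The medians of the 23 probes were -0.01 for C-DE/C-C and -0.04 for EE-C/C-C. For Pcdh11x, 1 probe gave 0.31 with diesel exhaust in standard cages and 0.28 with enrichment, and the other gave -0.11 and -0.22. All 18 promoter choice and looping genes were detected, with 25 probes and medians of 0.00 and -0.02. The insulator protein Ctcf gave 0.02 and -0.05 in these comparisons, and Rad21, a cohesin subunit, 0.03 and -0.04. Of 19 partners 18 were detected, with 24 probes and medians of 0.00 and -0.02. The kinase genes Ptk2 and Ptk2b, whose products bind the shared alpha and gamma tail, gave values from -0.15 to 0.11 and from -0.13 to 0.02 over their 5 probes.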

How the data were processed

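Members and gene lists were chosen with earlier results of these data known. The authors deposited intensity values as the scanner's Agilent Feature Extraction software (10.7.3.1, per the submitters' processing notes) wrote them, with the local background subtracted and not scaled between arrays, and flags for outliers and for signal above background. They also deposited a series table of log2 values. Compared with the intensities, these are log2 signals scaled to the 75th percentile of the array and centred by probe on the median of the arrays: 99.4% of 21709 probes lay within 0.02 on all 8 arrays after the same steps, and the largest difference was 0.549. Medians of the table's columns were between -0.01 and 0.01. Scanner intensities were used, with the table as an alternative.

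The processed signal was divided by the 75th percentile that its array had over 59305 noncontrol spots and taken to log2. Spots with a GenBank or RefSeq accession, well above background on all 8 arrays and without an outlier flag were kept, and spots of 1 probe were averaged, which left 21709 probes. Arrays of a pool were averaged, and 1.5-fold was the threshold. Each group is 1 pool, so no p-value was computed, and the number of arrays and the signal over background limit the precision. Simulated probes with changes planted past 1.5-fold served to check the calls. That check has no bearing on the smaller differences of the members that passed the filter. R 4.3.3 with limma 3.58.1 gave the normexp correction (offset of 50) and quantile normalization, and Python 3.11.15 (numpy 2.4.6, pandas 2.3.3, matplotlib 3.10.9) all other values. Alternatives changed the scaling, background correction, source of values, averaging, filters, threshold, local trend, unit and arrays kept.

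Named with values were C-type members, shared exon probes, any member past 1.5-fold, the 3 highest and 3 lowest members in each comparison of 1 factor, the 3 with the widest gap between duplicates, and members that missed the filter. The other alpha probes, Pcdhb3, Pcdhb4, Pcdhb16, Pcdhb20, Pcdhb21, Pcdhga1 and, from the gene lists, Pcdh11x, Ctcf, Rad21, Ptk2 and Ptk2b were chosen after their values were seen. Genes carry the names in the array files. No nucleotide or protein sequence is printed.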

Additional observations from a re-analysis of the deposited data

Results flagged for a closer look

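For 3 of the 30 member probes, every pairing of arrays gave one direction with diesel exhaust in standard cages and every pairing gave the opposite direction with enrichment, which 4.28% of all probes did. The difference between the rearings was not tested, since each group is 1 pool. Pcdha12 gave -0.29 in standard cages and 0.19 with enrichment, a difference of 0.48 (log2). Pcdhb4 gave -0.16 and 0.06, a difference of 0.23, and Pcdhb21 gave -0.10 and 0.13, a difference of 0.23. In all 3, both C-C arrays were above the 6 others, by 0.05 for Pcdhb4, 0.01 for Pcdha12 and 0.0003 for Pcdhb21. These margins are within the error of the arrays.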

How the results depend on the processing

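Of 117 member and alpha medians recomputed under alternatives other than leaving out an array, 104 moved by less than their SD over pairings. Of 75 counts of members past 1.5-fold, 72 stayed at 0. Both totals include settings that could not change the result. From a count of 0, a higher threshold, or 1.5-fold required in every pairing, can only give 0. Without the accession filter the same 30 member probes and scaling were left. Without the outlier filter or the shared exon probes, the 7 alpha variable exon probes stayed the same. The weaker filter on dim spots and none each kept 37 member probes and gave the same medians. Without the outlier filter the count of members past 1.5-fold was 1 in EE-DE/EE-C, EE-DE/C-DE and EE-DE/C-C, Pcdhb19 in each, with 2.66, 2.72 and 2.45. The member median in EE-DE/C-C, -0.091, was -0.077 after quantile normalization, -0.057 after normexp correction, -0.11 with the weaker filter on dim spots and also with none, and -0.065 with the brighter 75% of spots. With those brighter spots the member median was 0.028 for EE-DE/C-DE and -0.044 for C-DE/C-C, and the alpha variable exon median in C-DE/C-C was -0.29 over the 3 probes left. Normexp correction gave alpha variable exon medians of -0.13, -0.22 and -0.15 for C-DE, EE-C and EE-DE against C-C. Without the shared exon probes the member median was 0.028 for EE-DE/C-DE, and that of the difference between rearings was 0.12 in place of 0.06.

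Leaving out each array in turn, the member medians ranged from -0.10 to -0.061 for C-DE/C-C, from -0.011 to 0.025 for EE-DE/EE-C, from -0.13 to -0.064 for EE-C/C-C, from -0.018 to 0.0036 for EE-DE/C-DE and from -0.091 to -0.078 for EE-DE/C-C, and that of the difference between rearings from 0.052 to 0.11. The lowest in EE-C/C-C (-0.13) and the highest difference (0.11) came without the second C-C array. The alpha variable exon medians ranged from -0.26 to -0.19, -0.35 to -0.19 and -0.31 to -0.19 in the 3 comparisons with C-C. Counts past 1.5-fold stayed at 0. Without EE-C array 2 the alpha median in EE-C/C-C was -0.19 in place of -0.29.

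The alpha variable exon medians themselves, their alternatives and those for the spread between duplicates were added after seeing the data. Under all settings run, Pcdha4 and the first Pcdhac2 probe were the only ones of the 7 alpha variable exon probes that reached 0 or above in a comparison with C-C, with 0.00 for both in EE-DE/C-C. Pcdhac1, which enters with the weaker filter on dim spots and with none, gave 0.08 in EE-C/C-C. The number of member probes counted as detected was 30, and between 30 and 37 with other filters. No paired analysis was possible because the number of an array marks only which technical array of a pool it is. The signal over background of the first EE-DE array limits what can be said of the dim members, and with 1 pool per group the variation between mice is unknown.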

Other observations

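An unnamed probe of the array at chr18:37154455-37154514 (mm9), which lies just 3′ of the second Pcdha8 probe, is no member by its name and did not enter the values above. It was well above background on all 8 arrays and read -0.62 and -0.75 in C-C, -0.94 and -0.76 in C-DE, -1.17 and -0.85 in EE-C, and -1.08 and -0.95 in EE-DE. Both C-C arrays were above the 6 others, as for 6 of the 7 named alpha variable exon probes and for 5.8% of all probes. Whether the unnamed probe reads the same transcripts as the second Pcdha8 probe was not tested. In the unnamed probe the second C-C array (-0.75) was almost level with the second C-DE array (-0.76). Its differences from C-C were -0.17 (-0.32 to -0.01) in C-DE, -0.33 (-0.55 to -0.11) in EE-C and -0.33 (-0.46 to -0.20) in EE-DE. Another unnamed probe, within the gamma cluster at chr18:37894913-37894971, gave 0.08, 0.08 and -0.02 in the same comparisons. A probe named TC1627912 at chr18:37249678-37249737, next to that of Pcdhac1, was well above background on 7 arrays and went the other way with diesel exhaust, with 0.51 (0.06 to 0.95) in C-DE and 0.42 (0.15 to 0.70) in EE-DE, and -0.09 (-0.47 to 0.28) in EE-C. Its C-C arrays read -4.85 and -4.87, its C-DE arrays -4.79 and -3.92, its EE-C arrays -5.32 and -4.59 and its EE-DE arrays -4.70 and -4.18. A probe named ENSMUST00000097608 at chr18:37818019-37818078, just 5′ of the gamma cluster, was well above background on all 8 arrays and gave 0.21 (0.07 to 0.35), 0.14 (0.10 to 0.18) and 0.08 (-0.02 to 0.18) in C-DE, EE-C and EE-DE. The other probes in and between the clusters whose names are not those of members, beside Taf7, were well above background on 6 arrays or fewer.

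The gene for the transcription factor Taf7 lies between the beta and gamma clusters. Its probe at chr18:37802341-37802400 gave 0.05 (-0.06 to 0.15) in C-DE/C-C, 0.16 (0.03 to 0.29) in EE-C/C-C and 0.11 (0.02 to 0.21) in EE-DE/C-C. The other, at chr18:37800773-37800832, gave 0.08, 0.15 and -0.11 in the same order.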
